A study of Mus musculus with 6 samples.

Results

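The colony-stimulating factors and related ligands were followed here through 6 genes, of 55401 listed: the ligand genes Csf1, Csf2, Csf3, Kitl and Il34 and the receptor gene Csf1r. They were picked by gene name, with the result of IPRN against DMSO already known, so their values describe that contrast and are no test of it. All 6 were listed once, and all 6 passed the filter on low counts, Csf2 only through the counts of IPRN 1, DMSO 2 and DMSO 3.

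In NIH3T3 fibroblasts given IPRN, transcripts of Csf1, which encodes macrophage colony-stimulating factor, were 1.24-fold higher than in cells given DMSO. Those of Kitl, which encodes stem cell factor, were 1.33-fold lower, and those of Csf3, which encodes granulocyte colony-stimulating factor, were 2.97-fold lower. When single libraries were left out of the edgeR fit, each of these differences kept its direction. The adjusted p then rose above 0.05 in 4 of 6 fits for Csf1, in 5 for Kitl and in 6 for Csf3. Il34, which encodes the other ligand of the macrophage receptor, did not separate the groups, and Csf2, which encodes granulocyte-macrophage colony-stimulating factor, was at the limit of detection. Csf1r was low throughout and highest in 1 library, IPRN 3, where other macrophage transcripts were highest as well.

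The libraries came from NIH3T3, an immortalised line of wild-type mouse embryo fibroblasts, and fell into 3 given IPRN and 3 given the vehicle DMSO. Angelicin, a furanocoumarin from plants, stands in the title of the series, and the letters IPRN are not spelled out in the labels. The design text speaks of hydrogen peroxide and TGF-β as stimuli that were meant to bring about a state like that of tumour-associated fibroblasts, but the labels do not say which libraries received them. No dose or time is given, NIH3T3 is a single established line, and the labels do not say whether the replicates were separate cultures.

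Colony-stimulating factors are secreted proteins that drive the survival, division and maturation of blood cell precursors. Macrophage colony-stimulating factor and interleukin-34 share one receptor tyrosine kinase, the product of Csf1r, which marks monocytes and macrophages. Stem cell factor acts on the related kinase KIT of stem cells, mast cells and melanocytes, and the granulocyte factors act on receptors that signal through JAK kinases and STAT proteins. Fibroblasts are known producers of these ligands and normally lack the receptors on myeloid cells. Several of the ligand mRNAs are made on inflammatory stimulation and are short-lived, because AU-rich elements in their 3′ untranslated regions recruit decay factors.

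Total counts ran from 63594179 to 74183334 in the IPRN libraries and from 60320282 to 78629444 in the DMSO libraries, where the least deep library, DMSO 1, listed 20228 genes with a count. The 10 fibroblast markers were abundant throughout and summed to between 23014.3 and 25911 CPM in IPRN and between 21174.8 and 22242.3 CPM in DMSO. Col1a1 and Col1a2, the chains of type I collagen, reached the highest values, though Fn1 was above both in IPRN 1, at 6915.6 CPM. Single markers went both ways. Fn1 and Thy1 were higher in every IPRN library than in any DMSO library. Pdgfra, Prrx1, Vim and Col3a1 were lower in every IPRN library, and the other fibroblast markers overlapped. CPM is the count scaled to a common library size by TMM normalization. Of markers of other cells, the granulocyte list (led by S100a8 and S100a9), the mast cell list (Kit and Hdc), the lymphocyte list (Cd79a and Cd79b) and the erythroid list (Hba-a1 and Hbb-bs) each summed to at most 2.7 CPM in any library. The endothelial list, led by Cdh5 and Pecam1, summed to between 1.6 and 2.78 CPM in IPRN and between 3.33 and 3.6 CPM in DMSO. Elane, Mpo, Ngp, Mcpt4, Tpsb2, Cd3d, Cd3e and Cd3g, each a defining gene of such cells, were at 0 in all libraries. The 22 hepatocyte markers, which include genes that fibroblasts express such as Hp, summed to between 52.1 and 185.6 CPM in IPRN and between 75.1 and 148.7 CPM in DMSO. All 22 had a count in 4 libraries, but 9 had one in IPRN 3 and 8 in DMSO 1. Alb, the albumin gene, had 42.8, 13.7 and 0.186 CPM in IPRN 1, 2 and 3 and 0, 21.2 and 11.5 CPM in DMSO 1, 2 and 3. DMSO 1 and IPRN 3 thus stand apart, and values without them are given with the results they alter.

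In the fit over all 17159 genes that passed the filter, edgeR's quasi-likelihood test called 938 genes at an adjusted p under 0.05, or 5.47%, with 2.46% higher and 3.01% lower under IPRN. DESeq2, run on the same 17159 genes, called 2312. Its counts in the lists below are to be set against that number, not against the edgeR share. Of the 6 members, 3 were called by edgeR: Csf1 as higher, and Kitl and Csf3 as lower. IPRN and DMSO libraries were fully apart for 4 members, namely Csf1 and Csf1r with IPRN higher and Kitl and Csf3 with IPRN lower, and for 29.6% of all tested genes (14.9% with IPRN higher and 14.7% with IPRN lower). Since the members were picked with this contrast known, nothing is read from those shares.

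**Figure D1:**
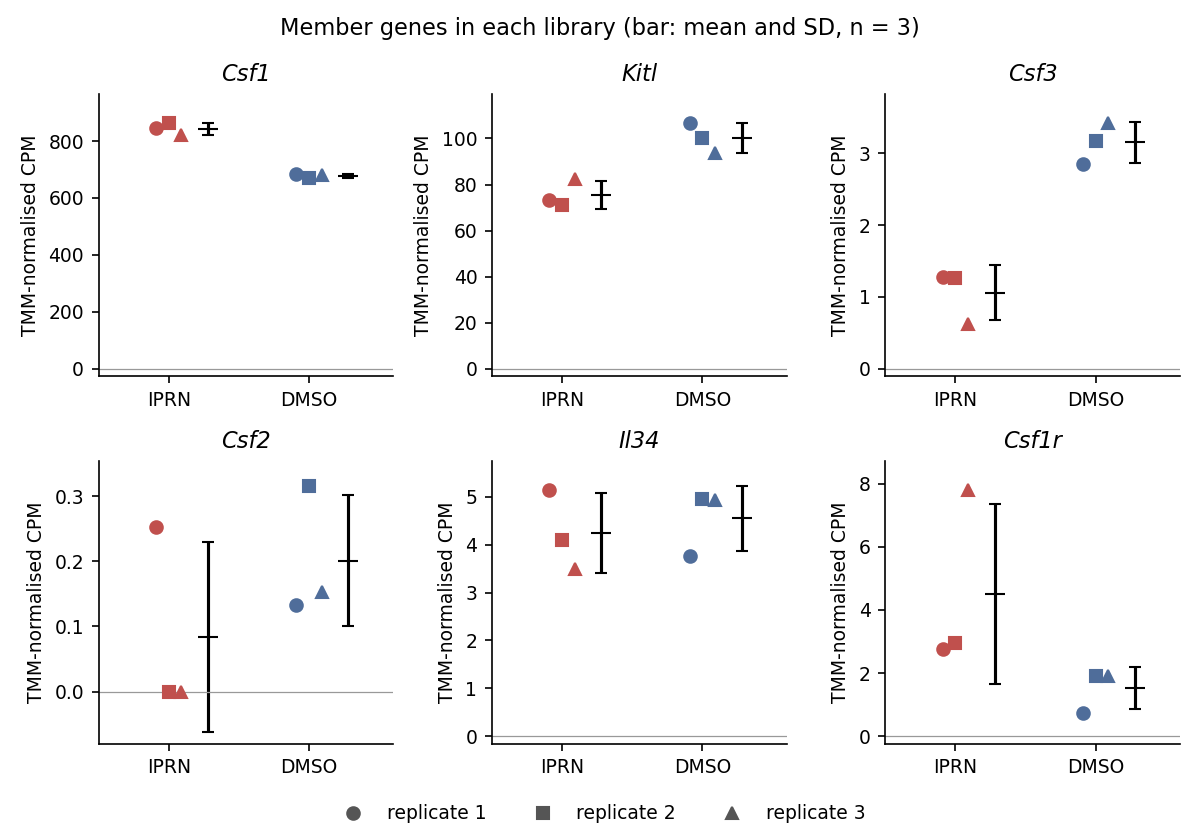
TMM-normalised CPM (y axes, linear, each panel with its own scale) of the 6 member genes in IPRN and DMSO libraries; each point is a library, its shape the replicate number, and the black bar the mean and SD of 3 libraries. Csf1 lies at 821.2 to 863.4 CPM in IPRN, above all DMSO libraries, Kitl and Csf3 lie below them, Il34 and Csf2 overlap, and the Csf1r value of IPRN 3 stands apart at 7.78 CPM.

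Csf1 was the most abundant member, also per length. It measured 844.1, 863.4 and 821.2 CPM in IPRN 1, 2 and 3, against 684.3, 670.3 and 680.2 CPM in DMSO 1, 2 and 3. Every IPRN library was higher than every DMSO library, and the spread within each group was narrow, with means of 842.9 ± 21.1 CPM under IPRN and 678.3 ± 7.21 CPM under DMSO (SD, n = 3 each). The log2 fold change was 0.31 ± 0.041 (SE). The counts behind these values, 52898 to 64385 in IPRN and 41104 to 53359 in DMSO, leave little counting error. Its size held in each fit with 1 library left out (0.30 to 0.33), but the call was lost without DMSO 1, DMSO 2, DMSO 3 or IPRN 2 (log2 fold changes of 0.32, 0.31, 0.31 and 0.30). It was also lost without DMSO 1 and IPRN 3 together, where the log2 fold change was 0.34, as large as with all libraries.

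Csf1 (ENSMUSG00000014599) lies on chromosome 3 from 107741048 to 107760469 on the minus strand of GRCm38. The tables list 7 transcripts for it. Alternative splicing of this gene is known to yield secreted and membrane-bound forms of the protein, which the gene-level counts cannot separate. The 250 bases before its start site, chr3:107760470-107760719, are shown because Csf1 was the member that was called higher, with matches to a set of short motifs in capitals. The sequence is from RefSeq on GRCm38.p6, in the direction of the gene.
Csf1 upstream: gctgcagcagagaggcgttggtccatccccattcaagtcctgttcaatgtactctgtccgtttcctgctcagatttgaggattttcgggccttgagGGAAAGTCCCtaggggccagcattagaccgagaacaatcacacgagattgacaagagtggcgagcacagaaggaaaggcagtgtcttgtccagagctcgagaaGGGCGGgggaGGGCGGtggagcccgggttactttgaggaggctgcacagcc
The first run of capitals is a form of the NF-κB motif on the opposite strand, and it begins 154 bases before the start site. Of 32851 windows of this length, 46 (0.14%) hold that motif on either strand. The other capitals are GGGCGG, the GC box, 51 and 41 bases before the start, which 32.7% of the windows hold. The AP-1 motif TGANTCA (6.75% of windows), TATAAA (12.4%) and CCAAT (33.8%) were searched on both strands and had no match in the Csf1 window. The motifs were chosen after the sequence had been seen, and a match describes letters, not binding. Of the other members, only Kitl and Csf2 had windows that were searched, which start at another RefSeq site than the tables' gene models and are not shown.

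Kitl encodes stem cell factor, which is displayed on the cell surface or shed and maintains stem cells, mast cells and pigment cells through KIT. It measured 73.1, 71.0 and 82.4 CPM in IPRN 1, 2 and 3, against 106.7, 100 and 93.8 CPM in DMSO 1, 2 and 3. The groups were separated by the gap between IPRN 3 and DMSO 3, which were the closest pair. The means were 75.5 ± 6.07 CPM under IPRN and 100.2 ± 6.47 CPM under DMSO (SD, n = 3 each), a log2 fold change of -0.41 ± 0.078 (SE). Leaving out 1 library gave log2 fold changes between -0.48 and -0.36. Of these 6 fits only the one without IPRN 3 (-0.48) kept the call, and it was lost without DMSO 1 (-0.36), DMSO 2 (-0.41), DMSO 3 (-0.45), IPRN 1 (-0.38) or IPRN 2 (-0.36). Without DMSO 1 and IPRN 3 together the value was -0.43, and the call was lost as well. Kitl (ENSMUSG00000019966) lies on chromosome 10 from 100015630 to 100100416 on the plus strand, with 6 transcripts listed. Its soluble and membrane-bound forms also arise by splicing and were counted together.

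Csf3 encodes granulocyte colony-stimulating factor, the main inducer of neutrophil production, and showed the largest fall among the called members. It had 91, 95 and 40 counts in IPRN 1, 2 and 3, or 1.28, 1.27 and 0.621 CPM. In DMSO 1, 2 and 3 it had 171, 231 and 268 counts, or 2.85, 3.17 and 3.42 CPM. IPRN 1 and IPRN 2 were close to each other and IPRN 3 was lower, and the lowest DMSO library remained above all of them. The means were 1.06 ± 0.378 CPM under IPRN and 3.15 ± 0.286 CPM under DMSO (SD, n = 3 each), with a log2 fold change of -1.57 ± 0.31 (SE). The direction and most of the size held in every fit with 1 library left out, from -1.73 without IPRN 1 and -1.72 without IPRN 2 to -1.31 without IPRN 3. None of these 6 fits kept the call, those without DMSO 1 (-1.64), DMSO 2 (-1.56) and DMSO 3 (-1.51) included. Without DMSO 1 and IPRN 3 together the log2 fold change was -1.37, not called, and without the filter on low counts it was -1.57, also not called. Csf3 (ENSMUSG00000038067) lies on chromosome 11 from 98701263 to 98703629 on the plus strand with 1 transcript listed.

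Csf2 encodes granulocyte-macrophage colony-stimulating factor, which activates macrophages, granulocytes and dendritic cells. It had 18, 0 and 0 counts in IPRN 1, 2 and 3 and 8, 23 and 12 counts in DMSO 1, 2 and 3. IPRN 1, at 0.252 CPM, lay within the DMSO range of 0.133 to 0.316 CPM. The 0 counts of IPRN 2 and IPRN 3 allow a level of up to 0.0402 and 0.0466 CPM (3 counts). That limit covers counting error only. The groups overlapped, the fitted log2 fold change was -1.23 ± 1.5 (SE), and no difference could be detected at this depth. With so few counts the fitted value depended on IPRN 1 and ran from -6.83 without it to -0.65 without IPRN 2. Csf2 (ENSMUSG00000018916) lies on chromosome 11 from 54247271 to 54249667 on the minus strand. Its exons share 96 bases with the antisense gene Gm12223, which had 0 counts in every library.

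The mRNAs of Csf2 and Csf3 are textbook examples of transcripts with AU-rich elements, and the richest stretch of 30 bases in the 3′ untranslated region is shown for the 2 genes beside Csf1 and Kitl, with the pentamer ATTTA in capitals. The sequences are from the longest annotated region per gene in the GENCODE M21 transcripts (GRCm38), written as DNA.
Csf2: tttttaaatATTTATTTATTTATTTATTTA
Csf3: ATTTAtctctATTTAatATTTAtgcatatt
Csf1: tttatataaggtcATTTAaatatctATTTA
Kitl: ccttctcagttttgtgacttgATTTATTTA
Csf2 had 9 pentamers in 317 bases (28.4 per kb) and Csf3 had 6 in 669 bases (8.97 per kb). Csf1 had 4 in 2111 bases (1.89 per kb), Kitl 14 in 4435 bases (3.16 per kb) and Il34 1 in 605 bases (1.65 per kb). The pentamer is common, with at least 1 in 65.2% of 21022 genes with such a region. The longer motif TTATTTATT, which overlaps the pentamer, occurred 4 times in Csf2, in none of the other members, and at least 2 times in 1.88% of genes. These counts describe letters and say nothing of decay in these cells.

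Il34 encodes interleukin-34, the alternative ligand of the Csf1r product, best known for maintaining microglia and Langerhans cells. It measured 5.13, 4.09 and 3.49 CPM in IPRN 1, 2 and 3, against 3.76, 4.96 and 4.93 CPM in DMSO 1, 2 and 3. The groups overlapped, and the lowest library of each was IPRN 3 and DMSO 1. The means were 4.24 ± 0.831 CPM under IPRN and 4.55 ± 0.684 CPM under DMSO (SD, n = 3 each). The log2 fold change of -0.10 ± 0.2 (SE) was smaller than its error, was not called in any fit, and turned to 0.01 without IPRN 3, with -0.26 without IPRN 1 and -0.22 without DMSO 1. Il34 (ENSMUSG00000031750) lies on chromosome 8 from 110741829 to 110805903 on the minus strand. In GENCODE M21 its exons share 22 bases with the antisense gene Gm15894, which had 21 counts in DMSO 1 and 0 in the other libraries, and 75 bases with Gm15895, which had 0 in all. The labels' protocols mark no strand, so reads there cannot be told apart.

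Levels can be set against each other across genes only per length, for which the deposited FPKM were used. Csf1 stood at 141.3 to 147.8 FPKM in IPRN and 114.2 to 116.3 FPKM in DMSO. That placed it at rank 311 to 330 among all genes with a count in the IPRN libraries and at rank 421 to 437 in the DMSO libraries. Kitl followed at 10.9 to 12.7 FPKM in IPRN and 14.2 to 16.2 FPKM in DMSO. Il34 came next in IPRN at 1.62 to 2.31 FPKM, above Csf3 at 0.398 to 0.814 FPKM. In DMSO the 2 genes overlapped, with Il34 at 1.71 to 2.27 FPKM and Csf3 at 1.80 to 2.16 FPKM. Csf1r, at 0.422 to 1.23 FPKM, overlapped Csf3 in IPRN. In DMSO Csf1r, at 0.115 to 0.296 FPKM, overlapped Csf2, at 0.138 to 0.349 FPKM. Of the summed FPKM of the 5 ligand genes, Csf1 made up 90.6% to 91.6% in IPRN and 85.2% to 86.0% in DMSO, and Kitl 6.73% to 8.12% in IPRN and 10.6% to 11.9% in DMSO. The ratio of Csf1 to Kitl was 12.9, 13.6 and 11.2 in IPRN 1, 2 and 3 and 7.18, 7.50 and 8.12 in DMSO 1, 2 and 3, so that the ranges did not meet.

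**Figure D2:**
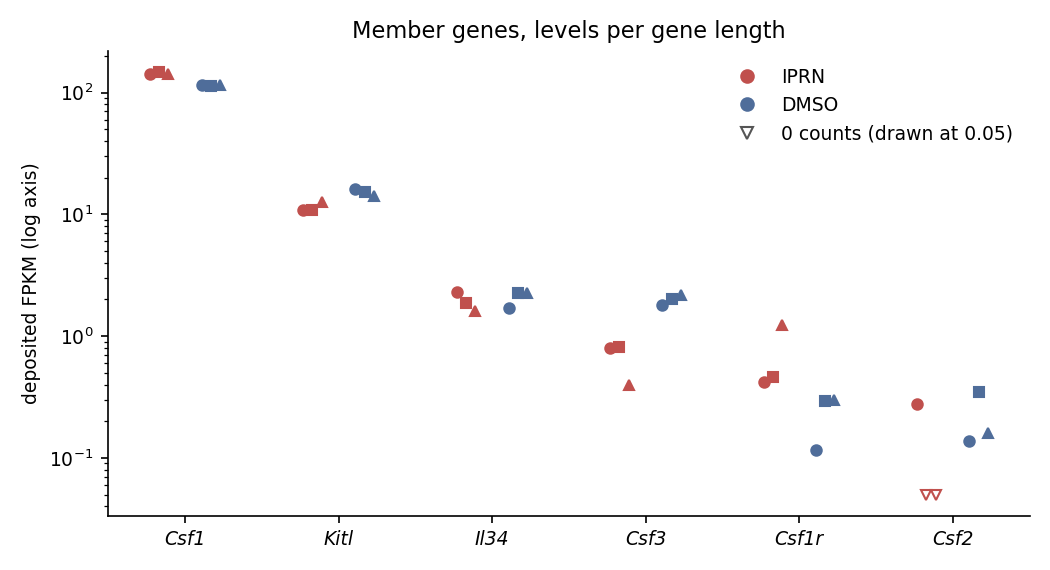
Deposited FPKM (log axis) of the 6 member genes in IPRN libraries (red, left of each pair) and DMSO libraries (blue, right); each point is a library, and open triangles mark libraries with 0 counts, drawn at 0.05. Csf1 lies 7.18- to 13.6-fold above Kitl, and Il34 and Csf3 overlap in DMSO only. Within the DMSO libraries, Csf1r and Csf2 are the lowest of the 6 genes.

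Csf1r encodes the receptor tyrosine kinase for both macrophage ligands and is a defining gene of monocytes and macrophages, not of fibroblasts. It had 197, 220 and 501 counts in IPRN 1, 2 and 3, or 2.76, 2.95 and 7.78 CPM. In DMSO 1, 2 and 3 it had 45, 138 and 150 counts, or 0.749, 1.9 and 1.91 CPM. Every IPRN library was above every DMSO library, with IPRN 3 more than 2-fold above the next and DMSO 1 the lowest. The means were 4.50 ± 2.84 CPM under IPRN and 1.52 ± 0.667 CPM under DMSO (SD, n = 3 each). The log2 fold change of 1.56 ± 0.52 (SE) was not called by edgeR, while DESeq2 called it at the same size. It was 0.90 without IPRN 3, 1.24 without DMSO 1 and 0.58 without both, where it was not called either (edgeR adjusted p = 0.342). It was between 1.75 and 1.81 with any other library left out.

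The other macrophage and myeloid markers were measured beside it. The 19 markers other than Csf1r summed to 27.3, 26.1 and 165.7 CPM in IPRN 1, 2 and 3, against 15.4, 27.9 and 32.5 CPM in DMSO 1, 2 and 3. Of these markers 16 were highest in IPRN 3, led by Lyz2, the lysozyme gene of myeloid cells, at 98.0 CPM there, against 6.76 and 7.21 CPM in IPRN 1 and 2 and 0.766, 5.26 and 6.68 CPM in DMSO 1, 2 and 3. Itgam, the integrin subunit CD11b, had 0.449, 0.603 and 13.0 CPM in IPRN 1, 2 and 3 and 0, 0.357 and 0.688 CPM in DMSO 1, 2 and 3. In DMSO 1, 12 of the 19 markers had a count of 0, Itgam among them, and Csf1r had its lowest value. The 6 Kupffer cell markers summed to at most 4.38 CPM, in IPRN 3, nearly all of it from the scavenger receptor gene Marco, which had 278 counts in IPRN 3 and at most 8 in any other library. Clec4f and Timd4, which define Kupffer cells of the liver, were at 0 in all 6 libraries. Between the libraries other than DMSO 1 and IPRN 3, Csf1r was 2.76 and 2.95 CPM in IPRN and 1.9 and 1.91 CPM in DMSO, while the summed markers were 27.3 and 26.1 CPM in IPRN and 27.9 and 32.5 CPM in DMSO. A part of the sum was Cd14, the lipopolysaccharide co-receptor gene, at 6.56 and 5.9 CPM in those IPRN libraries and 10.2 and 10.4 CPM in those DMSO libraries, and at 9.99 CPM in DMSO 1. Lyz2 was above Cd14 in IPRN 1 and 2. Without Cd14, left out after its values were seen, the other 18 markers summed to 20.7 and 20.2 CPM in those IPRN libraries and 17.7 and 22.1 CPM in those DMSO libraries. Single markers went both ways there. Lyz2, Spi1, Tyrobp and Fcer1g were higher in both of those IPRN libraries than in either DMSO library. Cd14, Cd53 and C1qa were lower, and the other markers overlapped. Of these, Spi1, Tyrobp, Fcer1g and C1qa were under 1 CPM in each of those libraries. The share of all genes that separate between so few libraries was not counted, so nothing is read from these markers. The part of other cells' RNA in the Csf1r values was not tested, and in such bulk libraries fewer cells of a type and less RNA per cell cannot be told apart.

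**Figure D3:**
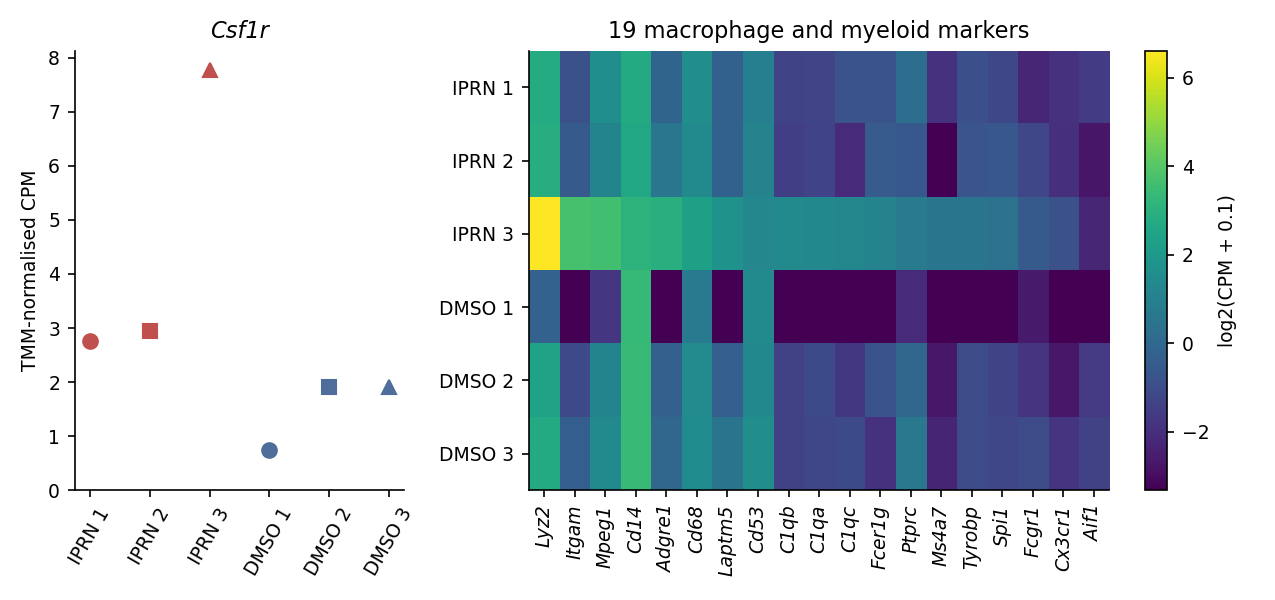
Left, Csf1r in TMM-normalised CPM in each library; right, log2(CPM + 0.1) of the 19 other macrophage and myeloid markers, 1 row per library and genes ordered by their highest value. IPRN 3 has the highest Csf1r (7.78 CPM) and the highest value of 16 of the 19 markers, and DMSO 1 has the lowest Csf1r (0.749 CPM) and 12 markers at 0.

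Csf1r (ENSMUSG00000024621) lies on chromosome 18 from 61100598 to 61131134 on the plus strand, with 6 transcripts listed. In GENCODE M21 the gene ends further downstream, where its exons share 873 bases with Hmgxb3 on the opposite strand. The deposited models of the pair do not overlap. Hmgxb3 had 3377 to 3669 counts in IPRN and 2840 to 3958 counts in DMSO, far more than Csf1r, so the level of Csf1r is uncertain to the extent that the counting drew on that stretch.

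Of 7 receptor genes besides Csf1r, 6 were tested and 0 were called by edgeR or by DESeq2. In edgeR 1 had an unadjusted p under 0.05, a share not counted over all tested genes, so nothing is read from it. The median log2 fold change of the 6 was 0.26, against 0.0016 over all tested genes. Apart from Sdc1 these genes were low, with group means of at most 1.16 CPM and SE from 0.46 to 1.2, so no shift is read from that median. Sdc1, the proteoglycan syndecan 1, which can bind interleukin-34, was the most abundant of those named, with 256.9 ± 8.82 CPM under IPRN and 232.2 ± 7.52 CPM under DMSO (SD, n = 3 each, edgeR adjusted p = 0.136). Csf2ra, the specific chain of the receptor for the Csf2 product, had 0.491 ± 0.342 CPM under IPRN and 0.255 ± 0.261 CPM under DMSO (edgeR adjusted p = 0.722). Its log2 fold change of 0.93 turned to -0.38 without DMSO 1 and IPRN 3. Ptprz1, a receptor phosphatase that also binds interleukin-34, had 0.124 ± 0.126 CPM under IPRN and 0.216 ± 0.13 CPM under DMSO (edgeR adjusted p = 0.782). Kit itself did not pass the filter, with 8, 14 and 0 counts in IPRN 1, 2 and 3 and 0, 8 and 8 counts in DMSO 1, 2 and 3.

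Of 7 tested genes around the shedding of membrane-bound ligands (proteases, their partners and the inhibitor Timp3), 2 rose, 0 fell and 5 missed the threshold in edgeR. DESeq2 called 2 higher and 1 lower. Their median log2 fold change was 0.09. Mmp14, a membrane-anchored matrix protease, rose 1.23-fold to 301.6 ± 12.4 CPM under IPRN, against 246.1 ± 1.47 CPM under DMSO (edgeR adjusted p = 0.0214). Rhbdf1, which encodes a partner of the sheddase ADAM17, rose 1.19-fold (edgeR adjusted p = 0.0464). Adam17, which releases both Csf1 and Kitl products from the surface, had 63.2 ± 2.54 CPM under IPRN and 73.0 ± 0.776 CPM under DMSO and was not called by edgeR (adjusted p = 0.0722), while DESeq2 called it lower (adjusted p = 0.015). With 1 library left out, Mmp14 was not called without DMSO 1, DMSO 2, DMSO 3, IPRN 2 or IPRN 3, with adjusted p from 0.0133 to 0.109 over the 6 fits, and Rhbdf1 was called in none of them, with 0.0624 to 0.179.

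Of 22 signalling genes downstream of the receptors, which fibroblasts share with blood cells, 0 were called by edgeR. DESeq2 called 2 as higher, and 6 had an unadjusted p under 0.05 in edgeR. The share of all tested genes under that unadjusted p was not counted, so nothing is read from the 6. The median log2 fold change was 0.11. The smallest adjusted p-values in edgeR were those of Socs1, a feedback inhibitor of JAK kinases (0.0802, 16.3 ± 1.24 CPM under IPRN and 12.8 ± 0.432 CPM under DMSO), and of the kinase genes Tyk2 (0.0907, 21.0 ± 0.494 CPM under IPRN and 17.1 ± 1.09 CPM under DMSO) and Jak1 (0.163, 225.0 ± 6.25 CPM under IPRN and 245.8 ± 7.08 CPM under DMSO).

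Among genes of the stimuli that switch these ligands on, 3 of the 16 tested fell, 1 rose and 12 missed the threshold in edgeR, while DESeq2 called 2 higher and 4 lower. The 3 that fell were Il1a, Il1rap and Il1r1, whereas Il1b, Il1rn, Il33, Myd88, Irak1 and Traf6, which also act in interleukin-1 family signalling, were not called. Their log2 fold changes ran from -0.71 ± 0.38 (SE) for Il33 to 1.11 ± 1.1 (SE) for Il1rn. Both of these genes were low, with means of 1.3 and 0.57 CPM under IPRN and 2.13 and 0.262 CPM under DMSO. Il1rap, the accessory chain of the interleukin-1 receptor, was 1.61-fold lower, at 66.0 ± 2.52 CPM under IPRN and 106.4 ± 4.09 CPM under DMSO (edgeR adjusted p = 0.00167). Il1a, the ligand gene, was lower by 4.93-fold and Il1r1, the receptor gene, by 1.56-fold. The call of Il1r1 was lost without DMSO 1, DMSO 2 or DMSO 3, with edgeR adjusted p from 0.0235 to 0.0912 over the 6 fits. The gene that rose was Tlr4, the lipopolysaccharide receptor gene, with 24.6, 24.9 and 25.6 CPM in IPRN 1, 2 and 3 and 4.58, 4.82 and 4.42 CPM in DMSO 1, 2 and 3 (edgeR adjusted p = 5.3e-05). It was 5.44-fold higher and was called in all 6 fits without 1 library. Il1rap lost its call when DMSO 1 and IPRN 3 were both left out (edgeR adjusted p = 0.0728) and kept it in all 6 fits without 1 library (0.00323 to 0.0157). The median of the list was -0.06.

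Of 24 tested transcription factors that are described at promoters of these ligands, 9 fell, 0 rose and 15 missed the threshold in edgeR, while DESeq2 called 0 higher and 11 lower. The median log2 fold change of the list was -0.22. The 9 were Egr1, Jun, Junb, Fos, Fosb, Fosl2 and Fosl1, with Cebpd, a CCAAT/enhancer-binding factor, and Rel, an NF-κB subunit. Jun, an AP-1 subunit, measured 200.5 ± 3.07 CPM under IPRN and 399.6 ± 6.38 CPM under DMSO (SD, n = 3 each, edgeR adjusted p = 7.91e-05). Egr1 was 4.6-fold lower (edgeR adjusted p = 7.13e-05), and Junb was lower by 1.91-fold. Egr1, Jun, Junb, Fos and Fosb were called in each fit with 1 library left out. Fosl2, Cebpd and Fosl1 kept the call without IPRN 1 and lost it without each of the other 5 libraries, and Rel lost it in all 6 fits, with edgeR adjusted p from 0.0519 to 0.157.

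Among 13 tested genes listed for the decay or stability of AU-rich and inflammatory mRNAs, 3 fell, 0 rose and 10 missed the threshold in edgeR. DESeq2 called 2 higher and 4 lower. Their median log2 fold change was -0.08. Zfp36l1, a decay factor of the tristetraprolin family, measured 86.1 ± 5.86 CPM under IPRN and 162.1 ± 2.46 CPM under DMSO (SD, n = 3 each, edgeR adjusted p = 0.000676). Zfp36, tristetraprolin itself, was 1.49-fold lower and Zc3h12a, an endonuclease of inflammatory mRNAs, 1.20-fold lower. Their adjusted p in edgeR was 0.0387 for Zfp36 and 0.0472 for Zc3h12a. When single libraries were left out, both kept the call without IPRN 1 and lost it without each of the other 5 libraries, with adjusted p from 0.0143 to 0.129 for Zfp36 and from 0.0413 to 0.152 for Zc3h12a.

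Of 20 other cytokines and niche factors for blood cells, 15 were tested, 6 fell, 0 rose and 9 missed the threshold in edgeR, and DESeq2 called 0 higher and 6 lower. The median log2 fold change was -0.28. Lif, which encodes leukaemia inhibitory factor, was lower by 4.59-fold, and Il6, the gene of interleukin-6, by 3.26-fold, at 6.04 ± 0.534 CPM under IPRN and 19.7 ± 0.91 CPM under DMSO (edgeR adjusted p = 0.000473). Vcam1, an adhesion molecule that holds precursors in the marrow, was 1.30-fold lower (edgeR adjusted p = 0.00631). It was not called without DMSO 1, and its adjusted p ran from 0.00701 to 0.0525 over the 6 fits. Angpt1, Il11 and Dlk1 also fell, but Angpt1 kept the call only without IPRN 1, and Il11 and Dlk1 in none of the 6 fits. Of the called genes of the 7 lists, Mmp14, Rhbdf1, Il1rap, Il1r1, Fosl2, Cebpd, Rel, Fosl1, Zfp36, Zc3h12a, Vcam1, Angpt1, Il11 and Dlk1 lost the call when DMSO 1 and IPRN 3 were both left out. Il3, a further colony-stimulating cytokine, was at 0 in all libraries. The called ligands of the group went both ways, with Csf1 higher and Kitl and Csf3 lower, whereas the called genes of this list were all lower. No list was tested as a set.

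**Figure D4:**
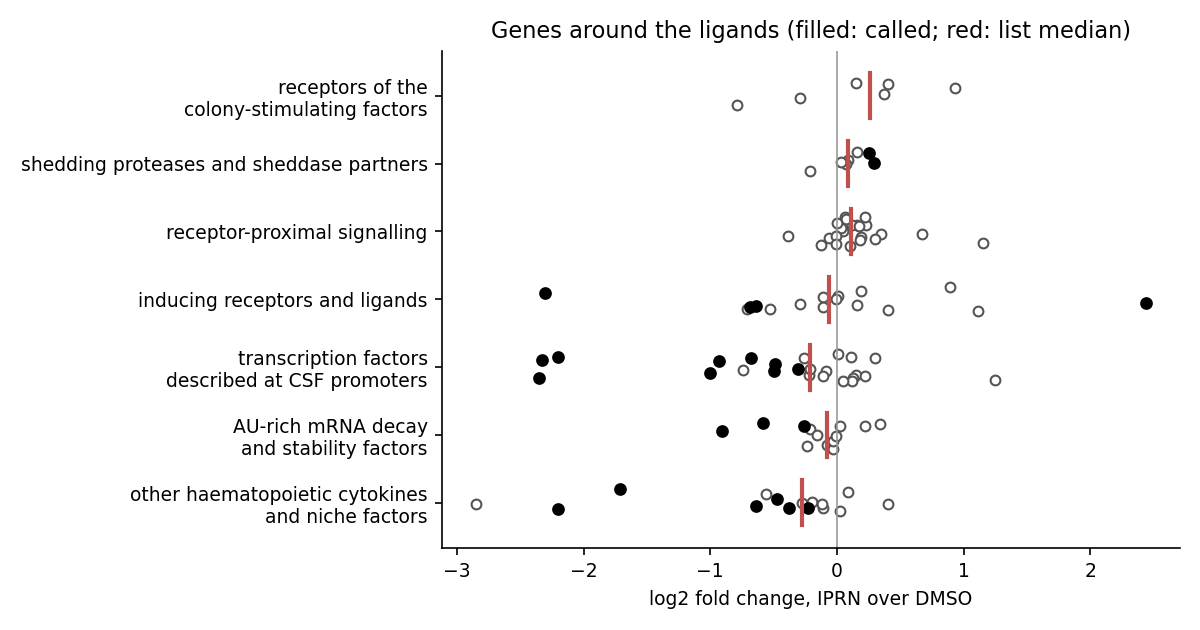
Log2 fold change of IPRN over DMSO (x axis) for each tested gene of 7 lists around the ligands, members left out; filled points were called by edgeR at an adjusted p under 0.05, open points were not, and the red line is the list median. The 9 called transcription factors all lie to the left of 0, and 0 receptor and 0 signalling genes are filled.

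Exons of Il1a, Il1rap, Jun, Junb, Zfp36l1, Zfp36, Vcam1, Adam17, Tyk2 and Jak1, and of Pkd1, Galnt2, Cenpu, Lxn, Sqstm1, Hivep3, Septin2, Arhgap17, Il6ra and Traf7 among the genes that follow, overlap another gene model in GENCODE M21, so their sizes are uncertain. The genes whose profile over the 6 libraries was most like that of each member were found by Pearson correlation of log2 CPM among 9733 genes. For Csf1 they were Pkd1 (r = 0.9996), Galnt2 (0.9989) and Flna (0.9968), and Galnt2 measured 253.6, 259.2 and 240.7 CPM in IPRN 1, 2 and 3 and 188.3, 184.3 and 190.2 CPM in DMSO 1, 2 and 3. Kitl was closest to Zcchc10 (0.9990), Zbtb10 (0.9971) and Septin2 (0.9948). Csf3 was closest to Ccl7 (0.9991), a chemokine gene for monocytes, with Sqstm1 (0.9984) and Hivep3 (0.9982) next. For Il34 the nearest were Arhgap17 (0.9867), Il6ra (0.9854) and Tmem184c (0.9780), and for Csf1r Traf7 (0.9921), Tnfrsf1b (0.9869) and Map4k4 (0.9855). Csf2, which rests on few counts, was closest to Cenpu (0.9983), Pfn2 (0.9940) and Lxn (0.9802). These values rest on 6 libraries in 2 groups, are the highest of a search over all those genes, and carry no test.

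**Figure D5:**
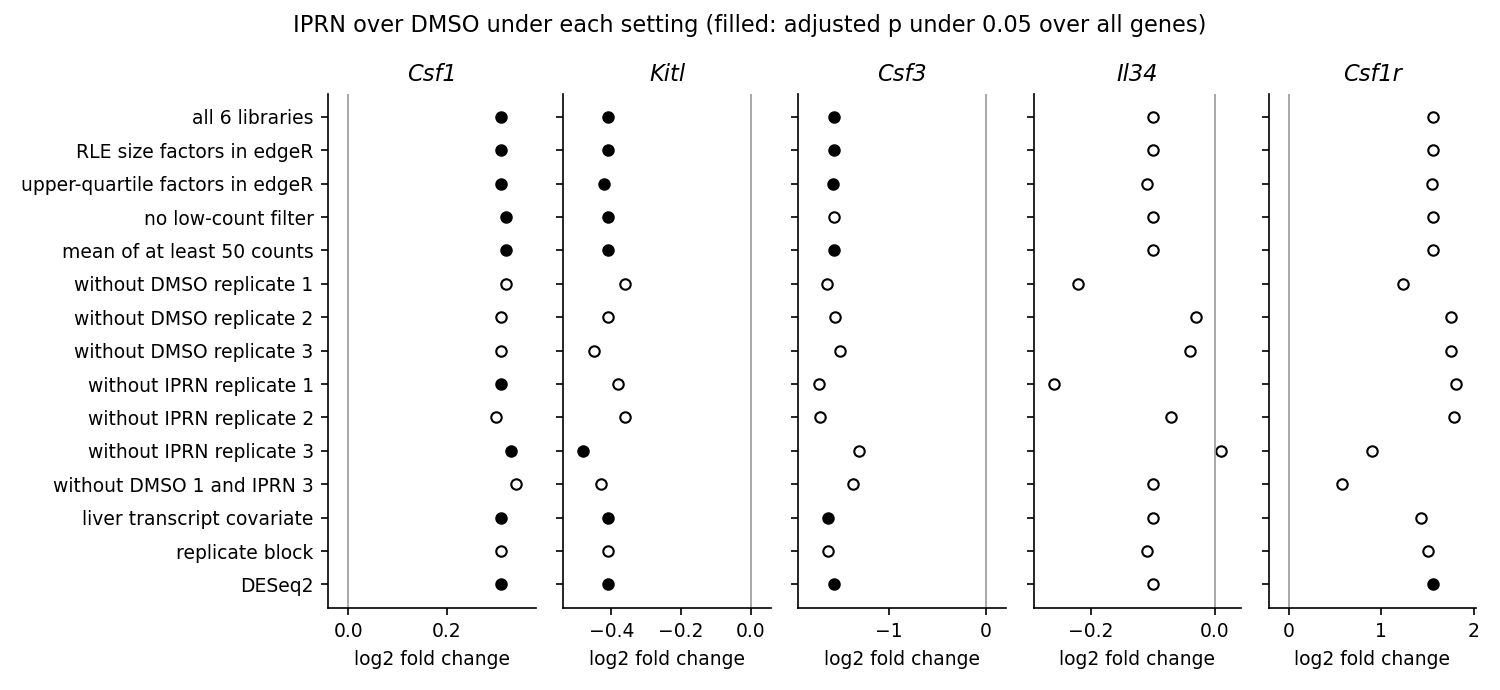
Log2 fold change of IPRN over DMSO (x axes, each with its own scale) for 5 member genes under each setting of the fit (rows); filled points had an adjusted p under 0.05 over all genes. Csf1, Kitl and Csf3 keep their side of 0 in every row while their calls come and go, Il34 crosses 0 without IPRN 3, and Csf1r is smallest, at 0.58, without DMSO 1 and IPRN 3.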

How the data were processed

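Per the labels' protocols, polyadenylated RNA was fragmented, copied with random primers and amplified, with no step that marks the strand. Per the file headers, the authors deposited, for each library and Ensembl gene, a whole-number count beside an FPKM value. The deposited FPKM (scaled by the authors for length and depth) served only for levels between genes, where a count of 0 is listed at 0.0001. Cutadapt 1.9 is named in the submitters' processing notes; the aligner, the counter and the build are, for this series, not given in the sources used here. Positions were identical to GENCODE M21 for 94.2% of 55141 shared IDs, so GRCm38 is used.

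The main test was edgeR's quasi-likelihood test on counts (version 4.0.16, R 4.3.3, TMM, minimum count of 10, group as the only term, Benjamini-Hochberg adjustment over 17159 genes, calls at an adjusted p under 0.05, two-sided). Fits were tested on simulated data. Standard errors come from the log2 fold change and its F statistic. Labels give no origin of replicates, so p-values measure only the spread between these libraries. DESeq2 1.42.0 and other settings were alternatives, as was leaving out each library.

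The members, the 7 lists around them and the 9 marker lists were chosen with earlier results of these data known. Named were all members, the 3 genes of each list with the smallest adjusted p, the 2 highest genes of each marker list and the 3 genes most like each member; other genes, such as Il1r1 and Hmgxb3, were added with their values in view.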

Additional observations from a re-analysis of the deposited data

How the results depend on the processing

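The count of 938 called genes was 621 without a low-count filter, 429 with a covariate for liver transcripts, 103 with the replicate block, 53 without both DMSO 1 and IPRN 3, and 2312 in DESeq2. With 1 library left out, it was 1047 without IPRN 1 and between 133 and 262 without any other. Called genes of the 7 lists numbered 24, but 34 in DESeq2, 28 with a mean of at least 50 counts, 18 without a filter, 15 with that covariate, 11 with the replicate block and 11 without both libraries. With 1 library left out, they numbered 24 without IPRN 1 and 11 to 14 without any other. Same-numbered libraries did not deviate together (correlations of 0.0652, -0.0145 and -0.0201), so the numbers are not treated as pairs. With the replicate block Csf1 (0.31), Kitl (-0.41) and Csf3 (-1.63) kept their log2 fold changes but not their calls. The same held without both libraries (0.34, -0.43 and -1.37), and for Csf3 without the filter (-1.57). With 1 library left out, Csf1 ran from 0.30 to 0.33, Kitl from -0.48 to -0.36, Csf3 from -1.73 to -1.31, Csf2 from -6.83 to -0.65, Il34 from -0.26 to 0.01 and Csf1r from 0.90 to 1.81. DESeq2 called Csf1r at 1.56. Of the named genes around the ligands, Mmp14, Rhbdf1, Vcam1, Zfp36 and Zc3h12a lost their calls with the replicate block, and Rhbdf1 and Zc3h12a also without the filter. Csf2ra turned to -0.38 without both libraries. What made calls come and go between the fits was not tested. Normalization with RLE or upper-quartile factors changed no member's call. Depth limits Csf2 and most receptor genes, at under 1 CPM.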
